A study of Bos taurus and Bos indicus with 12 samples.

Results

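The small leucine-rich proteoglycans are secreted matrix proteins built on a horseshoe of leucine-rich repeats, and many of them carry glycosaminoglycan chains. They sit on the surface of collagen fibrils, where they set fibril diameter and spacing, and some of them also bind growth factors of the transforming growth factor beta family. In skin they are made mainly by dermal fibroblasts. The 6 genes described here are KERA, OGN, LUM, DCN, BGN and FMOD, which were measured by 7 of the 24016 probe sets tested. Of 9155 genes with a symbol on the array they are the 6 set out by name, and every probe set that the platform annotation gives to 1 of these symbols was taken. BGN had 2 probe sets and each other gene had 1. The genes were proposed from their differences between infested and naive Brahman skin, so that contrast is described here without a test. A difference of at least 2 log2 (4-fold) in it separates the genes called strongly higher from the others.

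The values come from whole-thickness skin biopsies (8 mm wide and about 10 mm deep) of 12 female cattle, with 1 Affymetrix array per animal and 3 animals per group. The infested Brahman animals, of a zebu breed, were 6 months old and carried a heavy challenge with the cattle tick R. microplus, and the naive Brahman animals were tick-naive and 18 months old. The infested Holstein-Friesian animals, of a taurine dairy breed, were likewise challenged at 6 months, and the naive Holstein-Friesian animals were 12 months old. Infested skin was cut where larvae were attached. Within a breed infestation and age cannot be told apart, and only the infested groups share an age. Values are expression on the log2 scale made by RMA (robust multi-array average), in which 1 unit is a doubling of signal. Levels of different probe sets are not comparable with each other. In whole biopsies, fewer cells of a type and less RNA per cell cannot be told apart.

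The arrays carried the signal of skin throughout, and the mean of 5 keratinocyte markers, which include the basal keratins KRT5 and KRT14 and the suprabasal keratin KRT10, lay between 13.07 and 13.45 log2 on all 12 arrays. RNA integrity differed between groups. The mean 5' minus 3' signal of 5 control transcripts, which falls as RNA breaks down, was -4.91 to -2.07 log2 in infested Brahman, -1.04 to -0.85 in naive Brahman, -2.73 to -0.74 in infested Holstein-Friesian and -1.39 to -0.82 in naive Holstein-Friesian arrays. Infested Brahman array 1 had the lowest index and infested Holstein-Friesian array 1 the next.

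KERA, OGN and LUM were strongly higher in infested Brahman skin, and the same 3 were the ones that passed the test in Holstein-Friesian skin. DCN and FMOD differed less in either breed, and BGN had overlapping groups in both. The plot of levels by array shows all 7 probe sets.

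**Figure D1:**
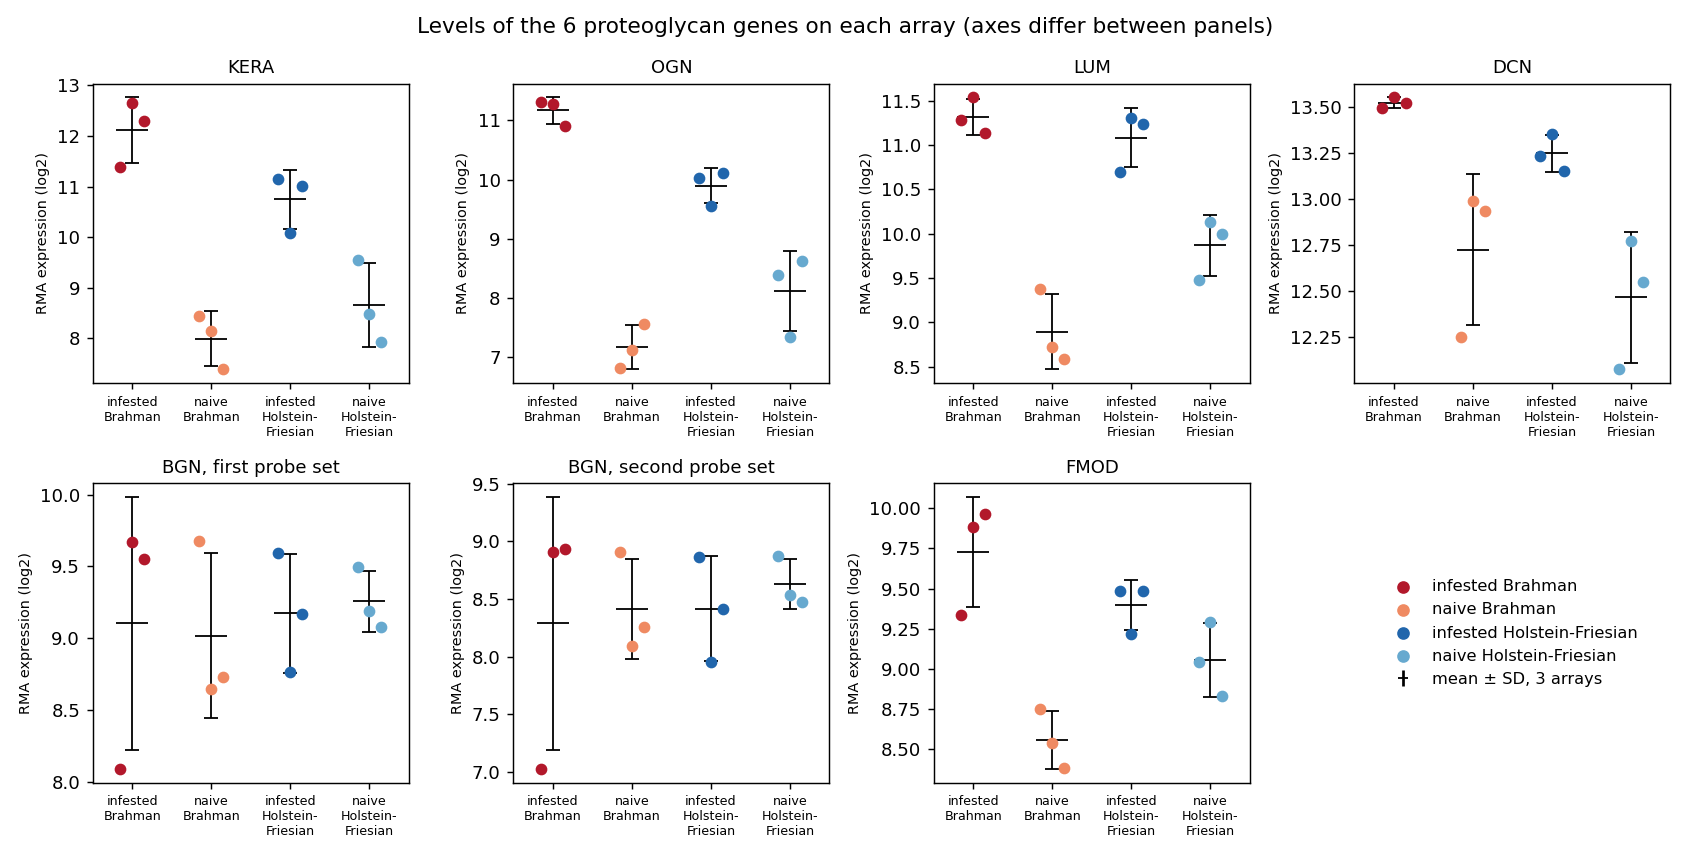
RMA expression (log2, vertical axis) of the 7 probe sets of the 6 genes on each array, with 1 panel per probe set and the 4 groups along the horizontal axis. Points are arrays 1, 2 and 3 from left to right and bars give the mean and SD of 3 arrays. KERA, OGN, LUM and DCN were higher on every infested than on every naive array of the same breed, and the 4 groups overlapped for BGN.

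KERA encodes keratocan, a keratan sulfate proteoglycan best known from the stroma of the cornea. Its level was 11.39, 12.65 and 12.30 log2 in the infested Brahman arrays, against 8.44, 8.14 and 7.39 in the naive ones. All infested Brahman arrays stood above all naive ones, and the difference of 4.13 ± 0.47 log2 (SE), or 17.5-fold, ranked 4 from the highest of 24016. In Holstein-Friesian skin KERA was at 11.16, 10.07 and 11.002 in infested arrays, against 9.55, 8.48 and 7.94 in naive ones, again without overlap. It rose 4.25-fold in infested Holstein-Friesian skin, by 2.09 ± 0.47 log2 (SE, n = 3 against 3 arrays, limma adjusted p = 0.0334), with a 95% interval of 2.08-fold to 8.70-fold that is not adjusted for the number of probe sets. This call was lost when 1 array was left out in 5 cases, with adjusted p = 0.0514 without naive Brahman 2, 0.0625 and 0.105 without infested Holstein-Friesian 1 and 3, and 0.112 and 0.0925 without naive Holstein-Friesian 2 and 3 (0.0142 to 0.112 over all 22 alternatives). The difference stayed between 1.73 and 2.54 log2 in these alternatives.

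OGN encodes osteoglycin, also called mimecan, a small matrix proteoglycan of connective tissues. The infested Brahman arrays had 11.31, 11.28 and 10.91 log2, against 6.82, 7.12 and 7.56 in the naive ones. The groups were about as far apart as for KERA, at 4.0 ± 0.31 log2 (SE) or 16-fold, and their spread was smaller. The infested Holstein-Friesian arrays had 10.02, 9.56 and 10.10, against 8.39, 7.35 and 8.62 in naive ones, with no overlap. OGN rose by 1.78 ± 0.31 log2 (SE, n = 3 against 3, limma adjusted p = 0.0156), with an interval of 1.08 to 2.47 log2. It did not pass without infested Holstein-Friesian 3 (1.67 log2, adjusted p = 0.0600) or naive Holstein-Friesian 1 (1.91 log2, adjusted p = 0.0509), and its adjusted p was 0.00406 to 0.0600 over the 22 alternatives.

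LUM encodes lumican, a keratan sulfate proteoglycan that limits the thickness of collagen fibrils in mouse skin and cornea. It was at 11.28, 11.54 and 11.14 log2 in infested Brahman arrays, against 9.38, 8.72 and 8.58 in naive ones. At 2.42 ± 0.25 log2 (SE), or 5.37-fold, LUM was the gene just inside the line of 2 log2, and FMOD, at 1.17 ± 0.19, was the gene just outside it. In Holstein-Friesian skin LUM was at 10.70, 11.30 and 11.24 in infested arrays, against 9.48, 10.13 and 9.99 in naive ones. Its lowest infested array thus stood above its highest naive array in both breeds. LUM rose 2.32-fold in infested Holstein-Friesian skin, by 1.21 ± 0.25 log2 (SE, n = 3 against 3, limma adjusted p = 0.0255, interval 1.58-fold to 3.41-fold). The call was lost without infested Holstein-Friesian 2 or 3 (adjusted p = 0.0771 and 0.0877) and without naive Holstein-Friesian 1, 2 or 3 (adjusted p = 0.103, 0.0527 and 0.0561), within a range of 0.00304 to 0.103 over the 22 alternatives.

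DCN encodes decorin, the proteoglycan that binds type I collagen and transforming growth factor beta. Its infested Brahman arrays lay close together at 13.50, 13.55 and 13.52 log2, against 12.25, 12.99 and 12.94 in the naive ones. The infested Holstein-Friesian arrays had 13.24, 13.36 and 13.15, against 12.08, 12.77 and 12.55 in naive ones. The groups did not overlap in either breed, and the differences were much alike, at 0.80 ± 0.22 log2 (SE) in Brahman and 0.78 ± 0.22 in Holstein-Friesian skin. DCN did not pass in Holstein-Friesian skin (limma adjusted p = 0.0628, interval 1.24-fold to 2.39-fold). With the replicate number as a block it did (adjusted p = 0.0447), as it did without infested Brahman 1 (0.0479), without naive Brahman 1 (0.0369) and with array weights (0.0212), and the range over the 22 alternatives was 0.0212 to 0.215. The mean signal of DCN was above that of 99.5% of probe sets. Whether such a bright probe set still responds in proportion to its transcript was not tested.

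FMOD encodes fibromodulin, which binds collagen and guides its cross-linking. It was at 9.34, 9.88 and 9.97 log2 in infested Brahman arrays, against 8.75, 8.54 and 8.39 in naive ones, without overlap. In Holstein-Friesian skin the infested arrays had 9.48, 9.22 and 9.49, against 9.05, 9.30 and 8.84 in naive ones. Naive Holstein-Friesian 2 stood above infested Holstein-Friesian 2, so the groups overlapped. The difference of 0.34 ± 0.19 log2 (SE, n = 3 against 3) did not pass (limma adjusted p = 0.343). Its interval of -0.09 to 0.76 log2 leaves room for a rise of up to 1.70-fold.

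BGN encodes biglycan, the closest relative of decorin, which can act on Toll-like receptors once it is released from the matrix. Its first probe set was at 8.09, 9.67 and 9.55 log2 in infested Brahman arrays, against 9.68, 8.65 and 8.73 in naive ones. The second probe set, of a type whose probes can also match other transcripts, was at 7.03, 8.91 and 8.94, against 8.91, 8.09 and 8.25. On both, infested Brahman array 1 was the lowest of all 12 arrays, and it was also the array with the lowest integrity index. The Brahman difference was 0.09 ± 0.41 log2 (SE) on the first and -0.13 ± 0.46 on the second probe set, and 0.59 and 0.51 without that array. In Holstein-Friesian skin the first probe set was at 9.59, 8.76 and 9.17 in infested arrays, against 9.496, 9.19 and 9.08 in naive ones, and the second at 8.87, 7.96 and 8.42, against 8.88, 8.53 and 8.47. Neither passed (limma adjusted p = 0.937 and 0.835), and the intervals of -0.99 to 0.83 and -1.22 to 0.79 log2 are too wide to show that BGN was the same in both groups. The sign of the first probe set turned in 3 alternatives, to 0.02 with the integrity index as a covariate, 0.12 without infested Holstein-Friesian 2 and 0.04 without naive Holstein-Friesian 1, and that of the second in 1, to 0.02 without infested Holstein-Friesian 2.

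**Figure D2:**
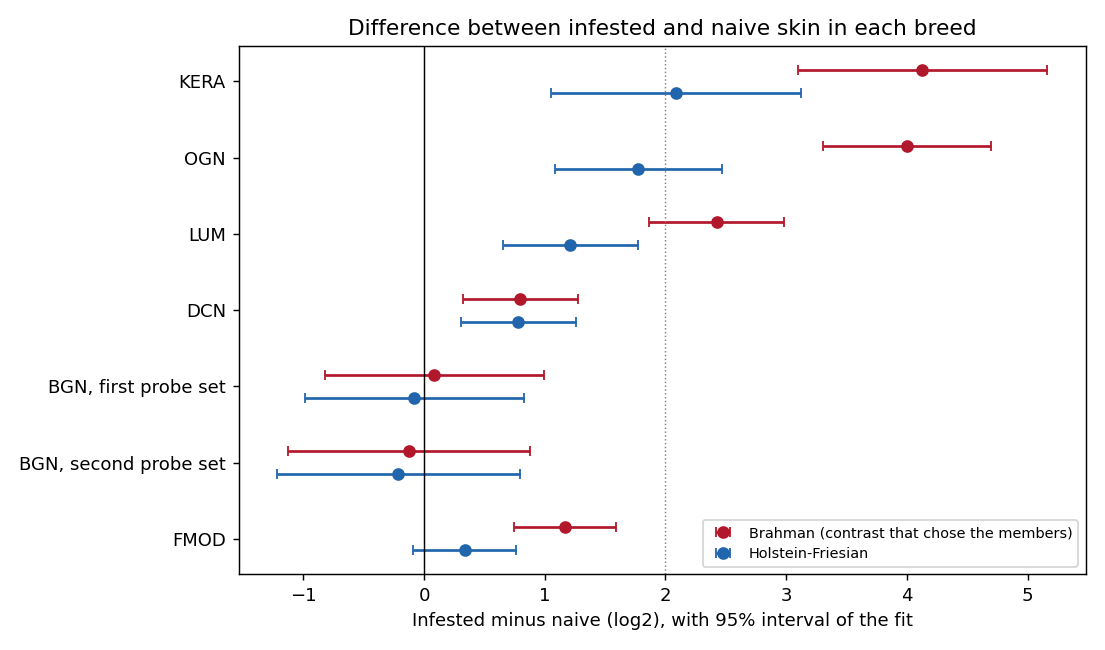
Difference between infested and naive skin (log2, horizontal axis) for each of the 7 probe sets, with Brahman above Holstein-Friesian in each row, the 95% interval of the fit of 12 arrays and a dotted line at 2 log2. The Holstein-Friesian intervals lie above 0 for KERA, OGN, LUM and DCN and include 0 for BGN and FMOD, whereas the Brahman values chose the genes and are shown as a description.

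Set against the whole array, 3 of the 7 probe sets were called higher in infested Holstein-Friesian skin and none lower, where 2.68% of all probe sets were called higher and 2.34% lower. The count of 3 was 0 without infested Holstein-Friesian 3, 1 without any of the naive Holstein-Friesian arrays, and between 2 and 4 in the other alternatives. KERA alone reached 2 log2 in Holstein-Friesian skin, where 0.421% of probe sets did. The infested arrays lay above all naive ones for 4 of the 7, where this held for 14.4% of all probe sets. KERA ranked 80 from the highest difference of 24016 in this comparison, OGN 159, LUM 529 and DCN 1461. The median difference of all probe sets was -0.03 log2. In Brahman skin 3 of the 6 genes were at or above 2 log2, where 0.641% of probe sets were, and the groups did not overlap, with infested arrays higher, for 5 of the 7 probe sets, where 19.3% of all probe sets did so. These Brahman counts follow from how the genes were chosen.

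The question of how the breeds compare was described at matched infestation state. Among infested animals, which share an age, KERA was higher in Brahman than in Holstein-Friesian skin by 1.37 ± 0.47 log2 (SE), OGN by 1.27 ± 0.31 and DCN by 0.28 ± 0.22, with no overlap between the 3 arrays of either group. Of all probe sets, 9.24% were higher in infested Brahman skin without overlap. LUM, FMOD and both BGN probe sets overlapped between the infested breeds, with differences of 0.24, 0.33, -0.07 and -0.12 log2. Among naive animals LUM was lower in Brahman than in Holstein-Friesian skin by 0.97 ± 0.25 log2 (a difference of -0.97) and FMOD by 0.50 ± 0.19 (a difference of -0.50), without overlap, where 7.21% of all probe sets were lower in this way. The naive differences of KERA and OGN were -0.67 and -0.95 log2, and the groups overlapped.

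The infested minus naive difference was larger in Brahman than in Holstein-Friesian skin by 2.22 ± 0.45 log2 (SE) for OGN, 2.04 ± 0.66 for KERA, 1.21 ± 0.36 for LUM and 0.83 ± 0.27 for FMOD. For KERA 1.37 of this 2.04 log2 lay in the infested animals, and for LUM only 0.24 of 1.21, with the rest in the naive animals of different ages. For DCN the breeds differed by 0.02 ± 0.31 log2, and for the BGN probe sets by 0.17 and 0.09. None of these breed differences passed over all probe sets (limma adjusted p = 0.293 for OGN, 0.591 for KERA, 0.585 for LUM and 0.595 for FMOD). They contain the Brahman arrays used to choose the genes. The differences and their adjusted p-values are thus a description and not a test of the breeds. No conclusion about the breeds is drawn from them.

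The genes strongly higher in Brahman skin kept that place when the arrays of lowest RNA integrity were set aside. Without infested Brahman 1 and infested Holstein-Friesian 1, the 2 arrays of lowest index, the Brahman differences of KERA, OGN and LUM were 4.49, 3.93 and 2.44 log2, and the Holstein-Friesian ones 1.88, 1.71 and 1.40 (limma adjusted p = 0.0238, 0.0131 and 0.00828). With the index as a covariate they were 4.30, 3.64 and 2.68 in Brahman and 2.12, 1.71 and 1.26 in Holstein-Friesian skin (limma adjusted p = 0.0287, 0.0131 and 0.0181). In both settings DCN did not pass in Holstein-Friesian skin (limma adjusted p = 0.0584 and 0.0513). Infested Brahman 2 and 3 had indices of -2.56 and -2.07, still below the -1.04 to -0.85 of the naive Brahman arrays. In neither setting can integrity and infestation therefore be told apart in Brahman skin.

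**Figure D3:**
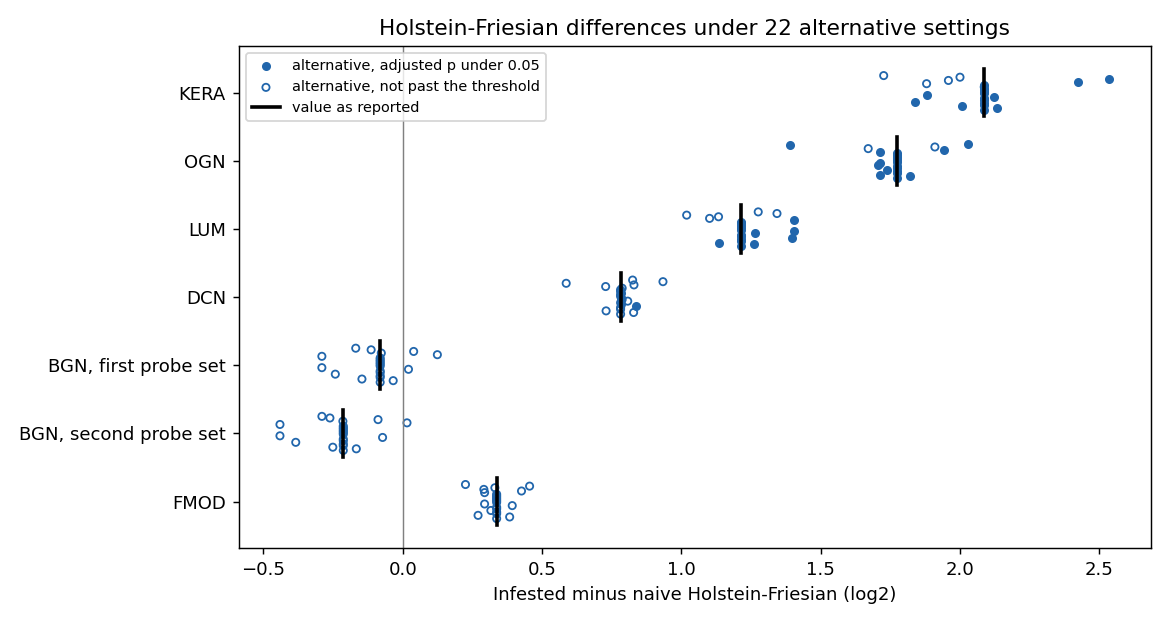
Infested minus naive Holstein-Friesian difference (log2, horizontal axis) of the 7 probe sets under 22 alternative settings, with filled points where the limma adjusted p was under 0.05, open points where it was not and a black bar at the value as reported. KERA stayed between 1.73 and 2.54, OGN between 1.39 and 2.03 and LUM between 1.02 and 1.40, and only BGN crossed 0.

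Correlations among the 6 genes differed with and without the group means. Over the 12 arrays KERA correlated with OGN at a Pearson r of 0.920, with FMOD at 0.924 and with LUM at 0.863, as a description in which all points share 4 groups and 1 normalization. After each group mean was taken out, KERA and OGN had r = -0.068 and KERA and LUM r = -0.146. KERA and FMOD still had r = 0.706, KERA and the first BGN probe set 0.772, and BGN and FMOD 0.824. These 3 genes were lowest in infested Brahman array 1 within its group. The 2 BGN probe sets followed each other at r = 0.966.

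The genes whose profile was most like each of the 6 were picked as the 3 with the highest r over the 12 arrays. For KERA they were WIPI1 (r = 0.964), the fibril collagen gene COL3A1 (0.963) and CCDC80 (0.956), for which r after removal of the group means was 0.640, 0.647 and 0.719. OGN was most like ANKH (0.972), SMARCA1 (0.970) and SRPX (0.969), and LUM like SRPX (0.95), WLS (0.942) and SLC1A4 (0.940). After removal of the group means r was 0.425 to 0.672 for the genes like OGN, but 0.160, 0.070 and 0.137 for those like LUM. DCN was most like PID1 (0.961), the metalloproteinase inhibitor gene TIMP2 (0.961) and ITGBL1 (0.954), and for these r after removal of the group means was 0.838 to 0.864. FMOD was most like the galectin gene LGALS1 (0.939), the collagen prolyl hydroxylase gene P4HA2 (0.934) and RCN1 (0.928). BGN was most like MAPK8IP3 (0.909), ACVR2B (0.891) and AANAT (0.886), whose own Brahman differences lay between 0.01 and 0.07 log2.

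Several of these genes lie side by side in the genome, according to the RefSeq gene table of the cattle assembly ARS-UCD2.0. EPYC, KERA, LUM and DCN follow each other as protein-coding neighbours, OGN is followed by OMD, ASPN and ECM2, and FMOD by PRELP and OPTC. Along the first run the Brahman differences were 0.08 log2 for EPYC, 4.13 for KERA, 2.42 for LUM and 0.80 for DCN, and the Holstein-Friesian ones -0.07, 2.09, 1.21 and 0.78. EPYC, which encodes epiphycan of growth-plate cartilage, had a mean signal above that of only 8.14% of probe sets.

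**Figure D4:**
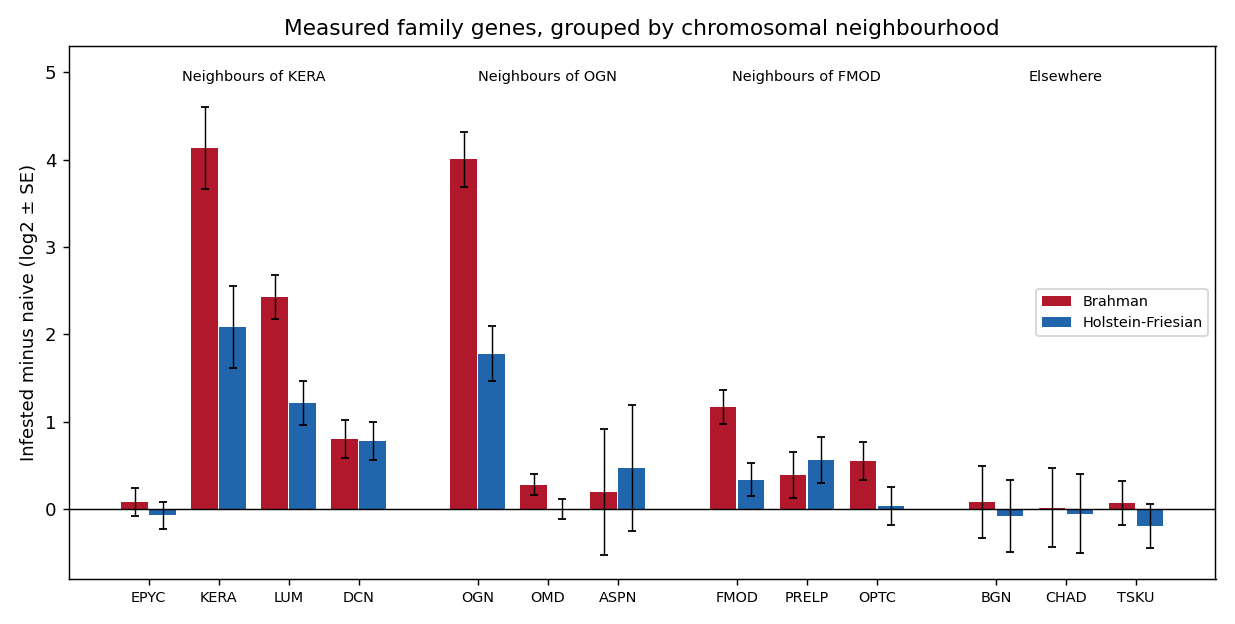
Infested minus naive difference (log2, vertical axis, bars from 0 with the SE of the fit) of the 13 measured genes of the family in Brahman (left bar) and Holstein-Friesian skin (right bar), grouped by chromosomal neighbourhood. KERA, OGN and LUM have the tallest bars in both breeds, next to EPYC, OMD and ASPN with bars under 0.5 log2.

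Of 12 other leucine-rich proteoglycan genes listed, 7 were measured and none passed in infested Holstein-Friesian skin, with a median difference of 0.00 log2. PRELP, which encodes a heparin-binding member that anchors basement membranes, was nearest, with 9.26, 9.86 and 9.89 log2 from lowest to highest in infested arrays, against 8.88, 9.20 and 9.24 in naive ones. These groups did not overlap, and the difference was 0.56 ± 0.26 log2 (SE, limma adjusted p = 0.248) on 1 of its 2 probe sets and -0.17 on the other. ASPN, which encodes asporin, was at 4.51, 7.70 and 7.71 in infested Holstein-Friesian arrays from lowest to highest, against 5.91, 5.94 and 6.67 in naive ones. The low value was infested Holstein-Friesian 1, and without it ASPN was higher by 1.54 log2 (limma adjusted p = 0.0425, against 0.758 with all arrays). Without infested Holstein-Friesian 2 or 3 its difference was -0.07 or -0.06.

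The remaining members were dim or close to level. OMD, the osteoadherin gene next to OGN, had a difference of 0.00 ± 0.12 log2 (SE) in Holstein-Friesian and 0.28 in Brahman skin, at a signal above that of 15.1% of probe sets. OPTC, which encodes opticin of the eye, had 0.03 and 0.55, CHAD, the chondroadherin gene, -0.06 and 0.01, and TSKU, the tsukushi gene, -0.19 and 0.07 in Holstein-Friesian and Brahman skin. For OMD, OPTC, CHAD and EPYC the Holstein-Friesian sign changed under at least 1 alternative. OMD and OPTC were higher on every infested than on every naive Brahman array, as were 19.3% of all probe sets. The Brahman values of these genes, of CHAD, EPYC and TSKU varied over the alternatives too. OMD was at 0.37 with median centring and also with the integrity index as a covariate. OPTC was at 0.042 with the integrity index as a covariate and at 0.26 with array weights, and EPYC at -0.15 with the covariate. CHAD lay between -0.34 and 0.62 over the 21 alternatives in which it had a value. TSKU lay between -0.12 and 0.33 over the 22 alternatives.

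The collagens that these proteoglycans coat differed less than KERA and OGN, but not less than every gene described here. COL5A2 differed more than LUM, at 2.57 against 2.42 log2 in Brahman and 1.35 against 1.21 in Holstein-Friesian skin. In Brahman skin such a ranking depends on how the 6 genes were chosen. For this and every later list, the shares of all probe sets called in infested Holstein-Friesian skin were 2.68% higher and 2.34% lower. Of 8 measured collagen genes 1 was called higher in infested Holstein-Friesian skin and none lower, with a list median of 0.35 log2 against -0.03 for all probe sets. It was COL5A2, a collagen of the fibril core, which rose by 1.35 ± 0.25 log2 (SE, limma adjusted p = 0.0164) and did not pass without infested Holstein-Friesian 3 or naive Holstein-Friesian 1 or 2 (adjusted p = 0.0518 to 0.0772). COL12A1 was not called on its probe set of highest mean signal. Of its 3 probe sets 1 was called in Holstein-Friesian skin, and the highest stood at 0.99 log2. In Brahman skin COL5A2 was higher by 2.57 log2, and the type I collagen genes COL1A1 and COL1A2 by 1.23 and 1.18. The other COL1A1 and COL1A2 probe sets stood at 2.13 and 1.63 there.

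Enzymes that build the chondroitin and dermatan sulfate chains of decorin and biglycan had 3 of 12 measured genes called higher in infested Holstein-Friesian skin and none lower, with a list median of 0.19 log2. All 3 act on the chain itself. The dermatan sulfate epimerase genes DSEL and DSE rose by 1.41 ± 0.19 and 1.36 ± 0.24 log2 (SE, limma adjusted p = 0.00615 and 0.0158), and the chondroitin synthase gene CHSY1 by 1.18 ± 0.20 (adjusted p = 0.0141). DSEL passed in all 22 alternatives, and its other probe set was at 0.87 log2. DSE did not pass without infested Holstein-Friesian 3 or naive Holstein-Friesian 1 or 2 (adjusted p = 0.0577 to 0.0661), nor CHSY1 without naive Holstein-Friesian 1 (0.0610). CHSY1 had 3 probe sets, and the lowest stood at -0.06 log2. In Brahman skin DSE, CHSY1 and CSGALNACT2 were higher by 2.70, 1.69 and 1.25 log2, while the lowest CHSY1 probe set and the other CSGALNACT2 probe set stood at -0.19 and -0.21. With the integrity index as a covariate CSGALNACT2 was at 0.63.

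Of 11 measured genes for the keratan sulfate chains of keratocan, lumican and fibromodulin, none passed in either direction in infested Holstein-Friesian skin, with a median of 0.04 log2 and a range of -0.72 to 0.58. The largest Brahman differences were those of the sulfotransferase gene CHST2 at 1.26, the galactosyltransferase gene B4GALT3 at -1.0 and the sialyltransferase gene ST3GAL2 at 0.96 log2. The other of 2 ST3GAL2 probe sets stood at -0.46. With the integrity index as a covariate CHST2 and ST3GAL2 were at 0.86 and 0.38.

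Among 11 measured genes for proteins that process or cleave the family, 2 were called higher in infested Holstein-Friesian skin and none lower, with a median of 0.63 log2. PCOLCE, whose product enhances procollagen processing, rose by 0.84 ± 0.14 log2 (SE, limma adjusted p = 0.0139) and its other probe set stood at 0.23. It did not pass without infested Holstein-Friesian 3 or naive Holstein-Friesian 1 (adjusted p = 0.0554 and 0.0651). The gelatinase gene MMP9 rose by 1.14 ± 0.26 log2 (adjusted p = 0.0339) and did not pass when any of the 6 Holstein-Friesian arrays was left out (adjusted p = 0.0620 to 0.123). In Brahman skin PCOLCE was higher by 2.85 log2, with 1.42 on its other probe set, the aggrecanase gene ADAMTS4 by 1.39 and the stromelysin gene MMP3 by 0.96. ADAMTS4 was at 2.49 with the index as a covariate. MMP3 overlapped between the groups, was at 0.42 without infested Brahman 2 and 1.51 without infested Brahman 3, and its lowest of 3 probe sets stood at 0.06.

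Growth factors and receptors that bind these proteoglycans had 4 of 15 measured genes called higher in infested Holstein-Friesian skin and none lower, with a median of 0.01 log2. CD14, a co-receptor of Toll-like receptors, rose by 2.22 ± 0.32 log2 (SE, limma adjusted p = 0.00698) and the bone morphogenetic protein gene BMP2 by 1.74 ± 0.25 (adjusted p = 0.00675), and both passed in all 22 alternatives. The growth factor gene TGFB3 rose by 1.30 ± 0.27 (adjusted p = 0.0265) and did not pass without infested Holstein-Friesian 2 or 3 or any naive Holstein-Friesian array (adjusted p = 0.0587 to 0.0967). The fourth was the receptor gene TGFBR2 at 1.05 ± 0.23 (adjusted p = 0.0320), chosen after its value was seen. Its other probe set stood at -0.11, and it did not pass without infested Holstein-Friesian 2 or 3 or any naive Holstein-Friesian array (adjusted p = 0.0581 to 0.117). Other genes of the list went down without passing. The growth factor gene TGFB1, named after its value was seen, and the receptor gene MET were lower on every infested than on every naive Holstein-Friesian array. Their differences were -0.83 and -1.21 log2 (limma adjusted p = 0.167 and 0.0867). In Brahman skin MET and TGFB1 were also lower without overlap, with differences of -1.91 and -1.10 log2, and BMP2 and CD14 were higher by 1.52 and 1.49.

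Markers of the cells that could carry these transcripts moved as well. Of 11 measured fibroblast markers 4 were called higher in infested Holstein-Friesian skin and none lower, against 2.68% and 2.34% of all probe sets. The growth factor receptor gene PDGFRB, named after its value was seen, was lower on every infested than on every naive Holstein-Friesian array without passing (-0.54 ± 0.15 log2, SE, limma adjusted p = 0.0580). PDGFRB did pass without infested Brahman 1 (adjusted p = 0.0406) or infested Holstein-Friesian 1 (0.0490), without both of these arrays (0.0263) and when arrays were weighted (0.0129). Their mean level was 9.72 to 10.48 log2 in infested Holstein-Friesian arrays, against 9.20 to 9.66 in naive ones, and 9.63 to 10.09 in infested Brahman arrays, against 9.16 to 9.82 in naive ones. In the list mean the groups were thus apart in Holstein-Friesian and overlapped in Brahman skin. The podoplanin gene PDPN rose by 2.09 ± 0.38 log2 (SE, limma adjusted p = 0.0167) and the fibroblast activation protein gene FAP by 1.45 ± 0.28 (adjusted p = 0.0213). Neither passed when certain arrays were left out, namely naive Holstein-Friesian 1 or 2 for PDPN (adjusted p = 0.0776 and 0.0529) and these or infested Holstein-Friesian 2 or 3 for FAP (adjusted p = 0.0635 to 0.0875). The dermatopontin gene DPT rose by 1.61 ± 0.41 (adjusted p = 0.0471), but not with the replicate block (adjusted p = 0.0728), and did not pass in 11 of 22 alternatives, which include each of the 6 Holstein-Friesian arrays left out (0.0792 to 0.166). The fourth, the growth factor receptor gene PDGFRA, rose by 1.13 ± 0.27 (limma adjusted p = 0.0381), and its lowest of 3 probe sets stood at 0.07. It did not pass with the replicate block (adjusted p = 0.0548) or in 8 other alternatives (adjusted p = 0.0545 to 0.143). In Brahman skin PDGFRA and FAP were higher by 1.42 and 0.73 log2 without overlap, and DPT by 1.00 with overlap. The lowest PDGFRA probe set stood at 0.27 there. The markers THY1, POSTN and PDGFRB were at -0.68, -0.54 and -0.23 in Brahman skin, with overlap.

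Of 6 measured macrophage markers, 4 were called higher in infested Holstein-Friesian skin and none lower, where 2.68% of all probe sets were called higher. They include the C-type lectin gene CD209, the scavenger receptor gene MSR1 and CD14, and the list median was 1.81 log2. CD14 is the same probe set already counted among the growth factors and receptors. CD209 did not pass without infested Holstein-Friesian 3 or naive Holstein-Friesian 1 or 3 (limma adjusted p = 0.0605 to 0.0866). The lowest of 3 MSR1 probe sets stood at 0.24 log2 in Holstein-Friesian and -0.09 in Brahman skin. The mean level of the list was 8.78 to 9.10 log2 in infested Holstein-Friesian arrays, against 6.86 to 7.79 in naive ones. In Brahman skin the levels were 8.42 to 8.91 in infested arrays, against 7.14 to 7.68 in naive ones. Smooth muscle and pericyte markers had none of 7 called in Holstein-Friesian skin, and their mean level was 9.0 to 10.55 in infested Brahman arrays, against 10.79 to 10.84 in naive ones. The lowest of these arrays was infested Brahman 1, which also had the lowest integrity index. The Brahman differences of the smooth muscle genes TAGLN and DES were -2.95 and -1.29 log2. They were -1.34 and -0.38 without that array, and 0.42 and 0.03 with the index as a covariate. CNN1, another smooth muscle gene, was at -1.30, and still at -0.78 with the covariate. Of the 7 markers 5 were lower without overlap in Brahman skin, ACTA2 (-1.07) and MYH11 (-0.96) among them. RGS5 was higher by 0.90 without overlap, as were 19.3% of all probe sets. The share of all probe sets lower without overlap in Brahman skin was not counted, so the 5 of 7 has no such background. Skeletal muscle markers were at 6.95 to 7.13 in infested Brahman arrays, against 6.66 to 8.66 in naive ones. None of 5 keratinocyte, 5 endothelial, 6 skeletal muscle or 4 cartilage and tendon markers was called in Holstein-Friesian skin, and of these the cartilage collagen gene COL9A1 and the tendon gene TNMD had group means of 3.69 to 3.99 log2. Of 6 adipocyte markers 1 was called lower and none higher in Holstein-Friesian skin, namely the adipocyte regulator gene PPARG at -1.50 log2 (limma adjusted p = 0.0400), a call lost in 8 of 22 alternatives (adjusted p up to 0.127). In Brahman skin PPARG was at -2.00, the lipoprotein lipase gene LPL at 2.32 and the lipid droplet gene CIDEC at 1.73 log2, without overlap, and CIDEC was at 0.47 with the index as a covariate. The mean of the adipocyte list was 7.04 to 7.88 in infested Brahman arrays, against 6.22 to 7.10 in naive ones, and 6.52 to 6.92 in infested Holstein-Friesian arrays, against 6.32 to 6.97 in naive ones. None of 6 T cell markers, 5 melanocyte markers and 1 hair follicle marker was called in Holstein-Friesian skin. In Brahman skin the T cell mean was 6.66 to 7.43 in infested arrays, against 6.46 to 7.10 in naive ones, the melanocyte mean 5.57 to 6.96, against 6.35 to 7.64, and the hair keratin gene KRT25 stood at 13.57 to 13.98, against 12.68 to 13.37. The part of these cell markers in the differences of the 6 genes was not tested.

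**Figure D5:**
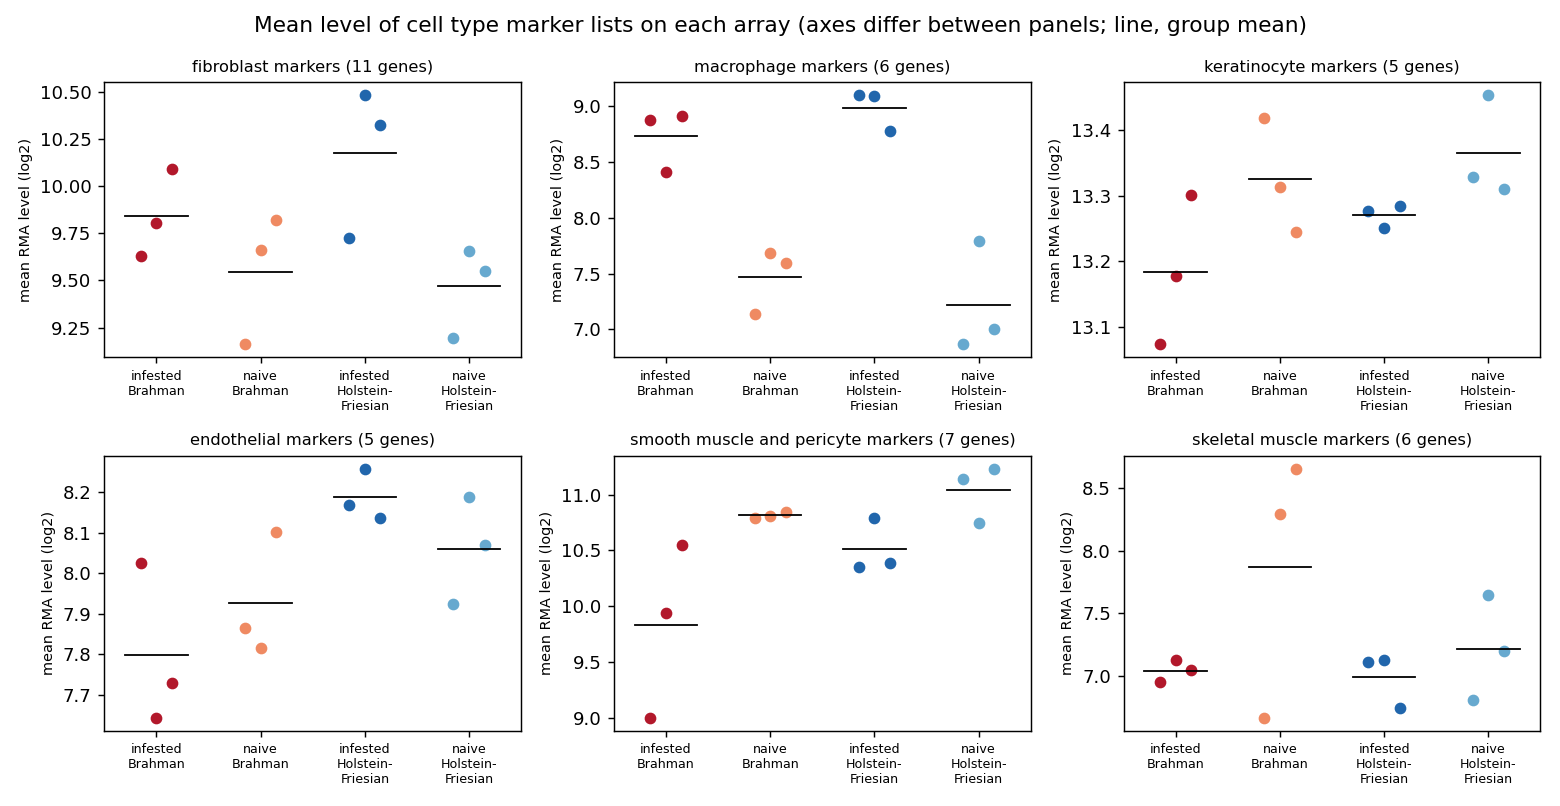
Mean RMA level (log2, vertical axis) of 6 marker lists on each array, with 1 panel per list, the 4 groups along the horizontal axis, points for arrays 1, 2 and 3 from left to right and a line at the group mean. Macrophage markers were higher on every infested than on every naive array of a breed, fibroblast markers were so in Holstein-Friesian skin only in this plot, and smooth muscle markers were lowest in infested Brahman skin.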

How the data were processed

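The authors deposited 1 table of log2 expression values for 12 arrays, made with RMA per the submitters' processing notes. Neither software version nor chip definition is named in the sources used here, and that the scale is log2 follows from its top value of 14.82. Of 24128 probe sets, 112 controls were left out and 24016 were tested, whatever their signal. Detection calls were not used, so no signal over background is given, and precision is limited by the 3 arrays per group. Platform annotation gave 13292 probe sets 1 symbol, 86 several and 10638 none. The gene IDs of 13263 were found in the RefSeq table, as were those of the 7 probe sets described here.

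One limma model of 4 group means was fitted to the 12 arrays (limma 3.58.1, R 4.3.3, 8 residual and 3.03 prior degrees of freedom), two-sided, with Benjamini-Hochberg adjustment over the tested probe sets and a threshold of 0.05. A gene with several probe sets is represented in lists by the one of highest mean signal. Same-numbered infested and naive Holstein-Friesian arrays deviated together from their group means (r of 0.113 to 0.249 over probe sets), which met the line of 0.1 set for pairing, although no label explains it. The reported fit has no block, and the value with the replicate number as a block is given where it changes a call. Infested and naive Brahman numbers did not (-0.189 to -0.053). The animals were separate, and no pair of arrays shared over 0.104% of values.

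The 6 genes and the lists were chosen with earlier results of these data known. Named list genes are up to 3 called in Holstein-Friesian skin and up to 3 with the largest Brahman difference, and every measured gene of the family. Alternatives dropped the dimmest 40 percent of probe sets, centred arrays on their median or applied cyclic loess, used a trended robust prior, array weights or a replicate block, fitted the 6 compared arrays alone, took the integrity index as a covariate, or left out the 2 arrays of lowest index or each array in turn.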

Additional observations from a re-analysis of the deposited data

Results flagged for a closer look

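PCOLCE differed between the breeds in its infested minus naive difference by an interaction test, by 2.01 ± 0.20 log2 (SE, limma adjusted p = 0.0190), at 2.85 log2 in Brahman and 0.84 in Holstein-Friesian skin. This is 1 of 2 PCOLCE probe sets, and the other stood at 1.42 in Brahman and 0.23 in Holstein-Friesian skin. PCOLCE belongs to the list of genes that process the family, and its Brahman value was known when the list was made. The adjusted p is therefore not independent of that choice. Infested animals were younger than naive ones in both breeds, and the naive animals were 18 months old in Brahman and 12 in Holstein-Friesian. Breed and age thus cannot be told apart in this difference, and no conclusion about the breeds is drawn.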

How the results depend on the processing

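The Brahman differences of KERA, OGN and LUM stayed at or above 2 log2 in all 22 alternatives, and the Holstein-Friesian differences of KERA, OGN, LUM, DCN and FMOD kept their sign. Calls in Holstein-Friesian skin rest on 3 arrays per group. The count of called probe sets among the 7 ranged from 0 to 4 over single arrays left out, against 3. With the replicate block it was 4, as DCN passed (adjusted p = 0.0447). Of the other named genes the block ended the calls of DPT and PDGFRA (adjusted p = 0.0728 and 0.0548).

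Over all probe sets, 1206 were called in Holstein-Friesian and 4753 in Brahman skin. Array weights gave 4589 and 7657, and the index covariate 2022 and 1808. Without the 2 arrays of lowest index 4076 were called in Holstein-Friesian skin. The 6 arrays alone gave 3000 in Brahman skin, and 935 with the replicate block. Single arrays left out gave 157 to 2563 in Holstein-Friesian and 2216 to 5567 in Brahman skin. The causes were not tested.

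Signs turned in Holstein-Friesian skin for probe sets that did not pass there. BGN was at 0.021 on its first probe set with the index covariate. Single arrays left out gave -0.29 to 0.12 on the first and -0.44 to 0.015 on the second BGN probe set, -0.065 to 1.54 for ASPN, -0.070 to 0.046 for OMD, -0.16 to 0.027 for EPYC, -0.07 to 0.14 for OPTC and -0.32 to 0.12 for CHAD. OMD was at 0.043 with median centring, 0.042 with cyclic loess, 0.014 with the index covariate and 0.0094 without the 2 arrays of lowest index. OPTC was at -0.026 with array weights, -0.068 with the index covariate and -0.074 without those 2 arrays. CHAD was at 0.0054 with cyclic loess.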
